A study of Mus musculus with 16 samples.

Results

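The costimulatory molecules of T cells described here are the products of 7 genes, namely Tnfrsf9 (4-1BB), Tnfrsf4 (OX40), Tnfrsf18 (GITR), Cd27, Icos, Cd28 and Cd40lg (CD40 ligand). The 7 were taken by name from the 31053 features of the count matrices. All except Cd40lg encode receptors. Cd40lg encodes the surface ligand by which a T cell engages CD40 on dendritic cells, B cells and macrophages, so it is a ligand among receptors.

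Live CD45+ cells were sorted from subcutaneous flank tumors of C57BL/6J mice, and each of 16 libraries was profiled by droplet single-cell RNA-seq. The tumors grew from MC38, a line of colorectal carcinoma, or from Panc02-SIY, a pancreatic adenocarcinoma line with the model antigen SIY. Each tumor was left untreated or was given 12 Gy of CT-guided radiation and harvested 24 h later, which gave untreated MC38, irradiated MC38, untreated Panc02-SIY and irradiated Panc02-SIY groups of 4 libraries each. No label ties a library to a mouse, so the p-values below measure the spread between libraries.

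Costimulatory receptors add to the signal of the T cell receptor. CD28 and ICOS belong to the immunoglobulin superfamily and bind CD80 and CD86, or ICOS ligand, on antigen presenting cells, and they act largely through phosphoinositide 3-kinase. 4-1BB, OX40, GITR and CD27 belong to the tumor necrosis factor (TNF) receptor superfamily, bind ligands of the TNF family, and recruit TRAF adaptors that lead to NF-kB. CD28 and CD27 are present on resting T cells, whereas 4-1BB, OX40 and ICOS are induced by activation, and GITR and OX40 are known for high levels on regulatory T cells of the mouse.

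The genes lie on 4 chromosomes (mm10). Tnfrsf4 (ENSMUSG00000029075, chr4:156013595-156016613) and Tnfrsf18 (ENSMUSG00000041954, chr4:156026322-156028894) lie next to each other, 9708 bases apart, and Tnfrsf9 (ENSMUSG00000028965, chr4:150920155-150946104) lies on the same chromosome. Cd28 (ENSMUSG00000026012, chr1:60746388-60773359) and Icos (ENSMUSG00000026009, chr1:60960773-61000322) flank Ctla4, an inhibitory receptor of the same family. Cd27 (ENSMUSG00000030336) is at chr6:125232620-125237136, and Cd40lg (ENSMUSG00000031132) is at chrX:57212143-57224042. The annotated end of Sdf4 overlaps the start of Tnfrsf4 by 16 bases on the same strand, so reads there could be counted for either gene.

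Promoter windows, from 250 bases before to 50 after an annotated start, were found in RefSeq (GRCm38.p6) for 4 of the 7 genes, namely Tnfrsf9, Tnfrsf4, Tnfrsf18 and Cd27, and not for Icos, Cd28 and Cd40lg. Windows of Tnfrsf9 and Tnfrsf18 are shown because both receptors were called in several of the comparisons that follow. The first is chr4:150927749-150928048, at an annotated start inside the Tnfrsf9 span given above and not at its outer end. The second is chr4:156026072-156026371, and both are on the plus strand. Capitals mark 2 overlapping matches to the NF-kB motif GGGNNNNNCC and 1 match to the AP-1 motif TGANTCA, searched on both strands.
Tnfrsf9: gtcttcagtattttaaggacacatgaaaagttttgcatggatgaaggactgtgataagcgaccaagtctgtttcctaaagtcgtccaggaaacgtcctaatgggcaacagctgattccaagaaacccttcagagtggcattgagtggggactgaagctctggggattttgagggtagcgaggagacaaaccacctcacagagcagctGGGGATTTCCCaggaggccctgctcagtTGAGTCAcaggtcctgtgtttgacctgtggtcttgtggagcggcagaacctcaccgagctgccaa
Tnfrsf18: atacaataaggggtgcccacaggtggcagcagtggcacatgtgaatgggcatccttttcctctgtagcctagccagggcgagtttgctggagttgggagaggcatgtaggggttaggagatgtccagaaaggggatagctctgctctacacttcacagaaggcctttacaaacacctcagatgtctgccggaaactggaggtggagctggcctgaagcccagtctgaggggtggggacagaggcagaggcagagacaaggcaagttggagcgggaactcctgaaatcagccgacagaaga
The Tnfrsf18 window and the window of Tnfrsf4 held 0 matches to both motifs. The other Tnfrsf9 window, chr4:150919905-150920204 at the outer start of its span, held 0 as well. The Cd27 window held 2 NF-kB matches and 0 AP-1 matches. Of 32851 promoter windows of the same length, 50.8% held the NF-kB letters and 7.81% held the AP-1 letters, so an NF-kB match is common and an AP-1 match is not. These matches are a description of the letters only.

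The depth and the libraries bear on every value. The libraries held 28678 cell barcodes, but the 8 MC38 libraries shared most of theirs, and their 9843 barcodes were 2632 distinct ones, 769 of them present in all 8. A barcode found in several libraries of a tumor was therefore counted once, in the library where it had the most unique molecular identifiers (UMIs), which left 20768 barcodes. Of these, 9519 were T or NK cells, with 174 in untreated MC38, 233 in irradiated MC38, 4657 in untreated Panc02-SIY and 4455 in irradiated Panc02-SIY. An MC38 library held between 33 and 98 T and NK barcodes and a Panc02-SIY library between 495 and 1959, so the MC38 values rest on far fewer cells. Levels (CPM) are UMIs of a gene after the summed UMIs of a population in a library were scaled to a total of 1000000. Since classes were built by clustering, levels between classes are given as a description with no test.

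The UMIs of the 7 genes came largely from T and NK cells, which held between 89.6% of them (Tnfrsf4) and 93.9% (Cd28) and 42.8% of the UMIs of all genes. In macrophages, used here as a comparison outside T and NK cells, the pooled level was 13.8 CPM or less for every member. After each barcode was thinned to 1000 UMIs, a macrophage held a mean of 0.0622 of the 7 genes, an NK-like cell 0.604, a CD8 T-like cell 1.35 and a regulatory T-like cell 3.70. Of the regulatory T-like barcodes, 83.9% held 3 or more members, against 13.9% of CD8 T-like barcodes.

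The T and NK barcodes were split without the 7 genes. CD8 T-like cells (4629 barcodes) held Cd8a in 95.4% and Cd4 in 1.97% of barcodes. Regulatory T-like cells (454) held Foxp3, the defining transcription factor of the lineage, in 58.1% of barcodes. NK-like cells (2219) held the NK receptor gene Ncr1 in 74.1% and Cd3e, a chain of the T cell receptor complex, in 4.51%. Cycling cells (553) held Cd8a in 87.3%. One class of 900 barcodes was named CD4 T-like by its marker list, but Cd4 was found in 43.9% and Cd8a in 38.8% of its barcodes, so it is called the mixed Cd4 and Cd8a class here. Of its 2 clusters, cluster 12 (368 barcodes) also raised 5 markers of innate lymphoid cells. A cluster of 730 barcodes, led by Cd7, Klra7 and Xcl1 and with Cd3e in 87.8% of barcodes, could not be named. Gamma delta T-like cells were 34 barcodes at this clustering and gave no comparison. Trdc, a gamma delta T cell gene, was found in 23.5% of them, 21.8% of the unnamed cluster and 19.3% of NK-like barcodes. The unnamed cluster also held the NK receptor gene Klrb1c in 41.5% of barcodes. With finer clustering (resolution 2), a cluster of 732 barcodes also led by Cd7, Klra7 and Xcl1 was named gamma delta T.

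Regulatory T-like cells had the highest level of 6 of the 7 genes, and Cd40lg was highest in the mixed Cd4 and Cd8a class. In 11 libraries with at least 10 regulatory T-like barcodes, Tnfrsf4 stood at 1714 ± 397 CPM (SD), against 241 ± 71.0 in the mixed class (10 libraries) and 87.6 ± 33.8 in CD8 T-like cells (9 libraries). Tnfrsf4 was near 0 in NK-like cells, at 7.39 ± 8.04 CPM (15 libraries), and in the unnamed cluster, at 7.40 ± 3.25 (8 libraries). A Tnfrsf4 UMI was found in 2.03% of NK-like barcodes (median 4549 UMIs) and 2.93% of macrophage barcodes (median 4312), so the NK-like level is at background. Regulatory T-like cells made up 1.10% of all UMIs and held 33.9% of the Tnfrsf4 UMIs.

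The other TNF receptors showed the same leading class with other orders below it. Tnfrsf18 was at 1002 ± 145 CPM in regulatory T-like cells, 307 ± 93.2 in the mixed class and 139 ± 53.1 in NK-like cells, and each class below the first overlapped its neighbor in the order. Tnfrsf9 was at 1347 ± 401 CPM in regulatory T-like cells. The means of cycling, NK-like, CD8 T-like and mixed cells lay between 335 and 358 CPM with overlapping spreads, and the unnamed cluster was at 72.8 ± 21.5. These means rest on different libraries, Panc02-SIY alone for cycling cells and both tumors for NK-like cells. Within each Panc02-SIY library with at least 10 barcodes of both, cycling cells were above NK-like cells. The untreated ones were at 397, 286, 375 and 232 CPM against 141, 180, 279 and 156 CPM. In NK-like cells, where 4-1BB is induced on activation, it was at 357 ± 222 CPM over both tumors. CD8 T-like cells, with 1 MC38 library, were at 347 ± 140. Within Panc02-SIY libraries, CD8 T-like cells were above NK-like cells except in untreated replicate 3 (267 against 279 CPM). Cd27 spanned the narrowest range, from 468 ± 73.7 in regulatory T-like cells to 227 ± 47.0 in CD8 T-like and 111 ± 27.0 in NK-like cells.

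Among the CD28 family, Icos was at 1917 ± 415 CPM in regulatory T-like cells, 609 ± 126 in the mixed class, 446 ± 128 in CD8 T-like cells and 87.6 ± 29.6 in NK-like cells. Cd28 was at 798 ± 87.7 in regulatory T-like cells and 693 ± 127 in the mixed class, which overlapped, and at 163 ± 80.5 in NK-like cells. Cd40lg was at 123 ± 40.4 CPM in the mixed class and at 17.5 ± 15.2 in the unnamed cluster, the next in order, while regulatory T-like cells were at 8.08 and NK-like cells at 0.876 CPM.

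**Figure D1:**
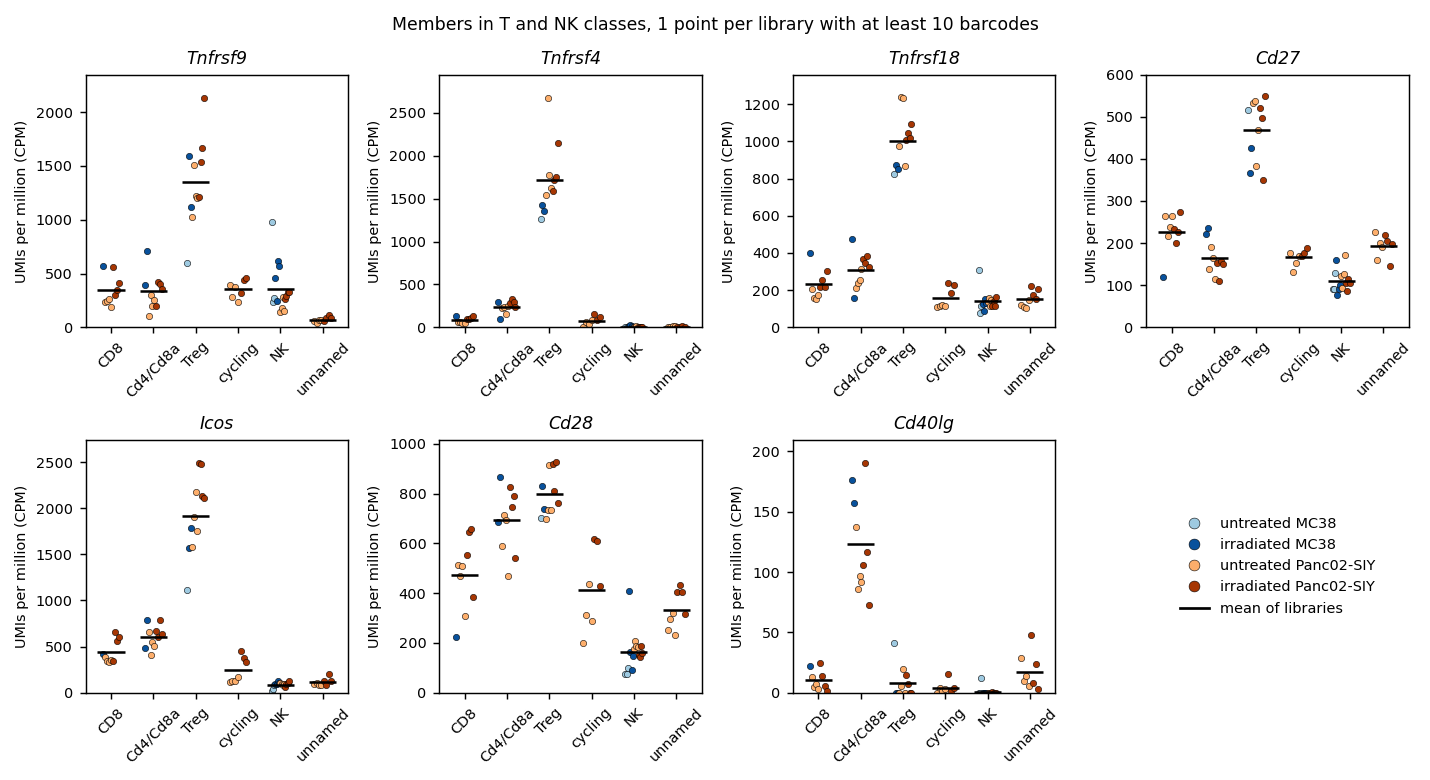
Level of each gene (CPM, vertical axis from 0) in 6 classes of T and NK cells, with 1 point per library of at least 10 barcodes, colored by group, and a bar at the mean. Regulatory T-like cells (Treg) stand above the other classes for Tnfrsf9, Tnfrsf4, Tnfrsf18, Cd27 and Icos, and the mixed class (Cd4/Cd8a) stands above them for Cd40lg.

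The genes whose levels were most like each member were found over 61 class-by-library sums and 7947 genes, which share libraries and class composition, so the correlations describe classes more than cells. Ikzf4, a transcription factor gene of the regulatory T list, was the gene most like Tnfrsf4 (Pearson r = 0.93), followed by Sdf4 (0.93) and Cd2 (0.91). Sdf4 was also the most like Tnfrsf18 (0.92), followed by Izumo1r (0.91), the folate receptor 4 gene of regulatory T cells, and C1qtnf12 (0.89). Sdf4 overlaps Tnfrsf4 by 16 bases, and a likeness of this pair from shared reads was not tested. C1qtnf12 lies 26213 bases before Sdf4 and Tnfrsf18 lies 9708 bases after Tnfrsf4, without overlap. Icos was most like Slamf1 (0.93), Cd28 most like Cd6 (0.89), Cd27 most like Hdac7 (0.86), Cd40lg most like St6gal1 (0.86) and Tnfrsf9 most like Samsn1 (0.83).

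To ask how the genes stood after radiation, counts were summed per library and compared with edgeR's quasi-likelihood test over all genes. A gene was called when the Benjamini-Hochberg adjusted p was below 0.1 and the fold change above 1.3, the limits of the study's methods. Radiation of Panc02-SIY tumors left higher levels of 4-1BB, OX40 and GITR genes in CD8 T-like cells, while no member was called in regulatory T-like, mixed or NK-like cells. A missing call does not show an unchanged level, and Tnfrsf9 was higher on average in those classes too, with the values given below. In CD8 T-like cells 3 of the 7 members were called, all higher, where 4.86% of 12315 genes tested were called. These cells numbered 2702 untreated and 1889 irradiated barcodes, with median UMIs of 8256.5 and 6322.

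OX40 showed the largest of these differences. Tnfrsf4 was at 59.3, 62.8, 45.8 and 52.7 CPM in CD8 T-like cells of the 4 untreated Panc02-SIY libraries and at 102, 93.7, 107 and 130 CPM in the irradiated ones. All irradiated libraries were above all untreated ones, and the means were 55.1 ± 7.52 and 108 ± 15.5 CPM (SD, n = 4). The log2 fold change was 0.90 with a standard error (SE) of 0.13, and the edgeR adjusted p was 0.000713. The call held in all 14 alternatives, with adjusted p between 5.49e-06 and 0.0877.

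For 4-1BB, Tnfrsf9 was at 237, 249, 267 and 185 CPM in untreated and 561, 296, 347 and 414 CPM in irradiated CD8 T-like cells. The groups did not overlap, and irradiated replicate 1, with 102 barcodes, was the highest. The difference was 0.68 on the log2 scale (SE 0.16, edgeR adjusted p = 0.0395). Tnfrsf18 was at 208, 161, 154 and 175 CPM in untreated and 218, 255, 216 and 302 CPM in irradiated libraries, close but without overlap. GITR had the smallest of the called differences, 0.44 on the log2 scale (SE 0.14, edgeR adjusted p = 0.0950), and its call was lost in 7 of 14 alternatives, against 2 of 14 for Tnfrsf9.

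The remaining members of CD8 T-like cells were not called. Icos was at 382, 348, 335 and 353 CPM in untreated and 348, 662, 564 and 608 CPM in irradiated libraries, so 3 irradiated libraries were high and replicate 1 lay among the untreated ones (log2 fold change 0.56, SE 0.17, edgeR adjusted p = 0.111), and DESeq2 called it. Cd28 differed by 0.23 (SE 0.17), Cd27 by -0.16 (SE 0.12) and Cd40lg by 0.47 (SE 0.83) on the log2 scale, with edgeR adjusted p of 0.590, 0.574 and 0.877.

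**Figure D2:**
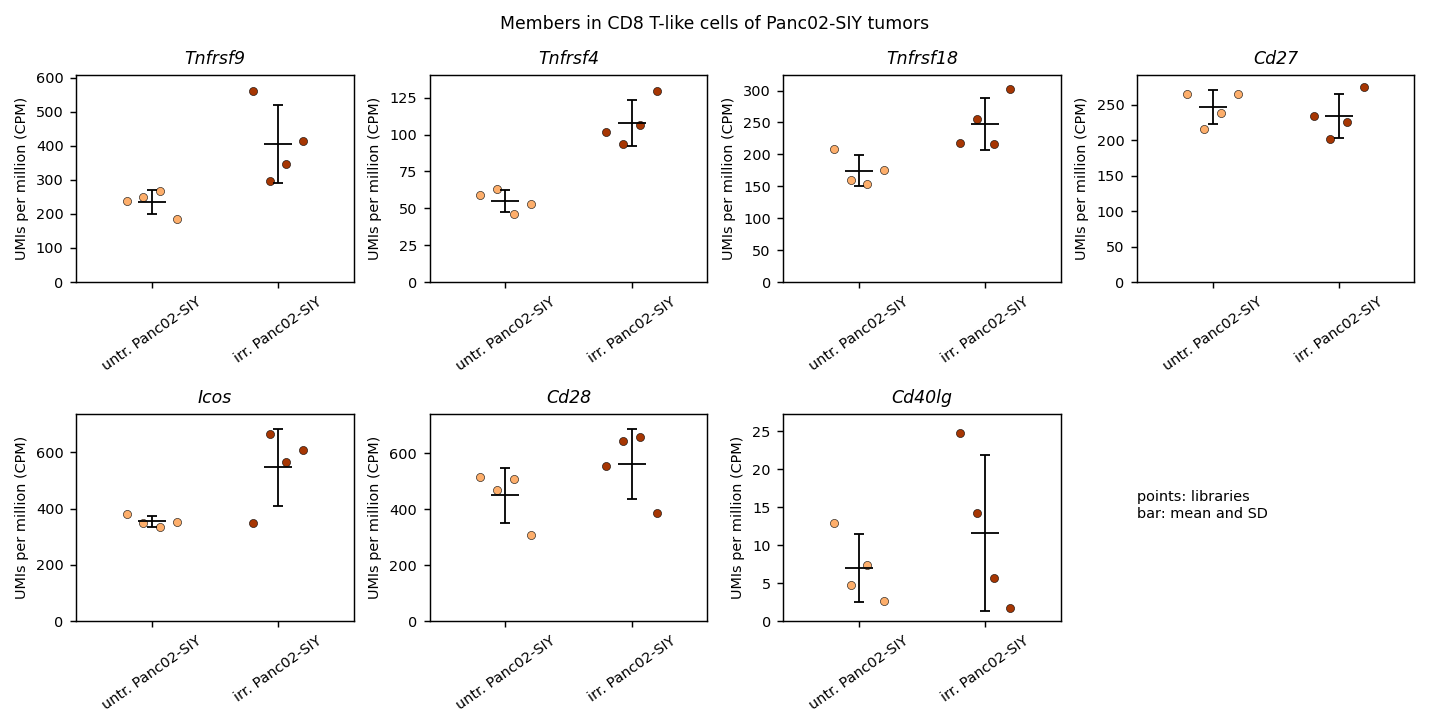
Level of each gene (CPM, vertical axis from 0) in CD8 T-like cells of untreated and irradiated Panc02-SIY libraries, with points for the 4 libraries of a group and bars for the mean and SD. Untreated and irradiated libraries do not overlap for Tnfrsf9, Tnfrsf4 and Tnfrsf18, and they overlap for Cd27, Icos, Cd28 and Cd40lg. The share of all genes without overlap is not given.

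The CD8 T-like class held 8 clusters whose shares moved with radiation, cluster 0 from 17.2% to 32.2% and cluster 11 from 12.4% to 2.70% of its barcodes. Within clusters, the mean level was higher in irradiated libraries in 7 of 8 clusters for Tnfrsf9, Tnfrsf4, Tnfrsf18, Cd28 and Cd40lg each, in 8 of 8 for Icos and in 2 of 8 for Cd27. The clusters come from the same libraries and are not replicates, and the share of all genes with such counts is not given. The counts therefore carry no test, and the part of the moving cluster shares in the class differences was not tested. Clusters 11 and 15 had 2 irradiated libraries each, and Cd40lg was near 0 in several clusters, as in cluster 0 (0 and 0.853 CPM). In cluster 0, Tnfrsf9 went from 211 ± 46.3 to 419 ± 55.2 CPM and Tnfrsf18 from 170 ± 37.6 to 341 ± 23.5 CPM (SD, n = 4). Tnfrsf9 moved little in cluster 9 (144 ± 66.0 to 136 ± 44.7 CPM) and cluster 13 (166 ± 46.0 to 177 ± 101 CPM). The 7 genes of the regulatory T cell marker list, which holds no member, were all above 0 in each group and summed to between 1476 and 1770 CPM in untreated and between 1904 and 2189 CPM in irradiated CD8 T-like cells. Foxp3, the defining one, was at 1.96 ± 2.50 and 1.69 ± 3.08 CPM, against 500 ± 88.2 and 443 ± 37.9 in regulatory T-like cells. The part of this list in the result was not tested further.

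Cycling cells of Panc02-SIY tumors, which were largely Cd8a-positive, had higher Icos, Tnfrsf18 and Cd28 after radiation. Here 3 of 7 members were called, where 19.4% of 9437 genes tested were called. Irradiated replicate 1 had 3 cycling barcodes and was left out. Icos was at 116, 123, 131 and 169 CPM in the untreated libraries and at 457, 375 and 337 CPM in irradiated replicates 2, 3 and 4. The lowest irradiated library lay well above the highest untreated one, and its difference on the log2 scale, 1.34 (SE 0.15, edgeR adjusted p = 4.85e-07), was the largest of any member called after radiation of Panc02-SIY.

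Tnfrsf18 in cycling cells was at 112, 117, 120 and 114 CPM in untreated and 238, 186 and 230 CPM in irradiated libraries. The untreated values were close together and all below the irradiated ones (log2 fold change 0.78, SE 0.15, edgeR adjusted p = 0.000511). Both calls held in all 9 alternatives. Cd28 was at 199, 311, 439 and 289 CPM against 616, 610 and 429 CPM, with overlap, and the call of its difference of 0.66 (SE 0.22, edgeR adjusted p = 0.0667) was lost in 2 of 9 alternatives. Tnfrsf4 was at 0, 61.8, 34.7 and 81.0 CPM against 154, 82.2 and 121 CPM, without overlap but not called (0.91, SE 0.56, edgeR adjusted p = 0.385). The regulatory T list summed to 1230 ± 138 CPM in untreated (n = 4) and 1823 ± 92.2 CPM in irradiated (n = 3) cycling cells, with Foxp3 at 2.80 ± 2.31 and 7.81 ± 6.19 CPM, and its part in the result was not tested. Depth also moved, from a median of 20488 UMIs per barcode to 15477.

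In the unnamed cluster, 2 of 7 members were called, where 7.89% of 8950 genes were. Tnfrsf18 was at 119, 111, 105 and 146 CPM in untreated and 222, 172, 153 and 205 CPM in irradiated Panc02-SIY libraries, with no overlap (log2 fold change 0.56, SE 0.15, edgeR adjusted p = 0.0241). Cd28 was higher by 0.43 on the log2 scale (SE 0.13, edgeR adjusted p = 0.0431), with overlap, and was no longer called in 7 of 13 alternatives.

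Regulatory T-like cells, the class with the highest levels, gave 0 calls among the 6 members tested, where 0.223% of 8060 genes were called by edgeR, and 1 member, Tnfrsf9, had an unadjusted p below 0.05. Tnfrsf9 was at 1027, 1511, 1217 and 1203 CPM in untreated and 1214, 1534, 1665 and 2132 CPM in irradiated libraries. Irradiated replicates 2, 3 and 4 were above every untreated library and replicate 1 was not (log2 fold change 0.35, SE 0.17, edgeR adjusted p = 0.864). Tnfrsf4 and Tnfrsf18 differed by -0.14 (SE 0.17) and -0.12 (SE 0.17), so neither differed beyond its error. DESeq2 called 0 members in this class as well.

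The mixed Cd4 and Cd8a class gave 0 of 7 members called, where 0.241% of 9551 genes were, with 1 at an unadjusted p below 0.05 in edgeR and 0 called by DESeq2. That gene was Tnfrsf18, at 210, 239, 257 and 314 CPM in untreated and 368, 344, 382 and 327 CPM in irradiated libraries, without overlap (log2 fold change 0.40, SE 0.18, edgeR adjusted p = 0.742). Cd40lg, for which this class is the main source, was at 137, 85.5, 96.5 and 91.5 CPM in untreated and 106, 190, 117 and 73.1 CPM in irradiated libraries and overlapped. Tnfrsf9 in this class was at 110, 300, 200 and 252 CPM in untreated and 200, 421, 405 and 353 CPM in irradiated libraries, with overlap. NK-like cells gave 0 of 6 members called, where 0.823% of 10567 genes were, with 0 called by DESeq2 and 1 at an unadjusted p below 0.05 in edgeR, Cd27, at 128 ± 31.8 and 103 ± 11.5 CPM. Tnfrsf9 in NK-like cells was at 141, 180, 279 and 156 CPM in untreated and 268, 289, 327 and 328 CPM in irradiated libraries, with overlap.

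Over all T and NK cells of Panc02-SIY tumors, 0 of 7 members were called after radiation, where 7.21% of 11452 genes were, and 2 had an unadjusted p below 0.05. Tnfrsf9 was at 243, 261, 287 and 195 CPM in untreated and 353, 345, 405 and 387 CPM in irradiated libraries. The groups did not overlap and differed by 0.48 on the log2 scale (SE 0.20, edgeR adjusted p = 0.180). Icos was at 379, 288, 333 and 288 CPM and at 373, 554, 515 and 472 CPM, where irradiated replicate 1 lay within the untreated range (0.47, SE 0.17, edgeR adjusted p = 0.113). CD8 T-like cells were 58.0% of the untreated and 42.4% of the irradiated T and NK barcodes, and NK-like cells were 743 of 4657 and 1288 of 4455, so the class mix moved beside these values, and its part in them was not tested. DESeq2 called 1 member, Icos, and the call appeared in 14 of 29 alternatives for Icos and in 4 of 29 for Tnfrsf9.

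**Figure D3:**
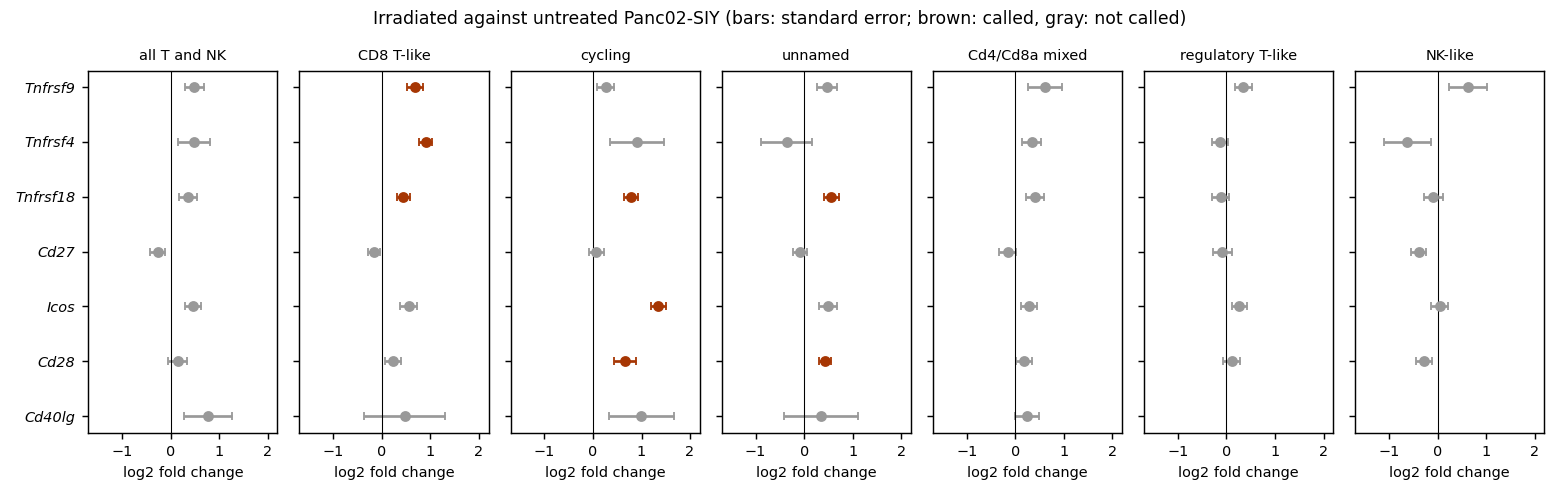
Log2 fold change of each gene between irradiated and untreated Panc02-SIY libraries (horizontal axis) in all T and NK cells and in 6 classes, with bars for the standard error, brown for called and gray for not called. Called genes lie in CD8 T-like cells, cycling cells and the unnamed cluster, and all are higher after radiation, and a missing point was not tested.

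In MC38 tumors, radiation went with higher Icos and Cd28 over all T and NK cells, and these were 2 of 7 members called where 0.926% of 11452 genes were. Icos was at 368, 166, 347 and 353 CPM in the untreated and 651, 457, 517 and 493 CPM in the irradiated libraries. The groups did not overlap, and untreated replicate 2 was far below the other untreated libraries (log2 fold change 0.76, SE 0.19, edgeR adjusted p = 0.0713). Cd28 was at 214, 111, 319 and 289 CPM and at 645, 369, 454 and 346 CPM, also without overlap (0.93, SE 0.24, edgeR adjusted p = 0.0931). These calls rested on libraries of 33 to 98 barcodes and were lost in 12 of 29 alternatives for Icos and 19 of 29 for Cd28. Untreated and irradiated MC38 libraries also shared barcodes, and 1827 of 2632 kept ones had at least 80% of their UMIs in 1 library. With only those barcodes neither gene was called, and 14 genes were called in place of 106. Without untreated replicate 2 the log2 fold changes were 0.53 and 0.69, with edgeR adjusted p of 0.205 and 0.171. Regulatory T-like cells held 0.553% of all UMIs in untreated and 1.09% in irradiated MC38. Their share of T and NK UMIs rose, while their share of T and NK barcodes fell. The mixed class rose from 13.8% to 19.7% of T and NK barcodes. An alternative chosen after seeing the data left out regulatory T-like barcodes. It gave log2 fold changes of 0.69 for Icos and 1.01 for Cd28 (edgeR adjusted p = 0.159 and 0.0486). The part of the other classes was not tested.

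The TNF receptors of MC38 T and NK cells varied widely within each group. Tnfrsf9 was at 853, 371, 436 and 554 CPM in untreated and 868, 410, 729 and 632 CPM in irradiated libraries, and Tnfrsf4 was at 422, 115, 478 and 563 CPM and at 462, 212, 418 and 233 CPM. Both overlapped, with log2 fold changes of 0.24 (SE 0.21) and -0.28 (SE 0.38). Untreated replicate 2, the lowest untreated MC38 library for all 7 members, had 2 regulatory T-like barcodes among its 34 T and NK barcodes, and the other untreated libraries had between 8 and 16. Its mixed class had 9 barcodes, against 2, 4 and 9 in the others, and its Cd40lg level was 1 UMI. The part of the class mix in its low values was not tested.

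Within classes, MC38 libraries allowed few comparisons. With libraries of at least 5 regulatory T-like barcodes, a limit chosen after seeing the data, 0 of 6 members were called between irradiated and untreated MC38, where 0.296% of 6074 genes were, and Icos differed by 0.29 (SE 0.32) and Cd28 by 0.46 (SE 0.33), with 0 members at an unadjusted p below 0.05 in edgeR and 0 called by DESeq2. In NK-like cells 0 of 6 were called, where 0.312% of 10567 genes were, and 3 had an unadjusted p below 0.05 in edgeR, with 0 called by DESeq2. Untreated replicate 3 had 9 NK-like barcodes and was left out, with Icos at 64.5 CPM (3 UMIs) and Cd28 at 215 CPM (10 UMIs). Icos was at 47.1 ± 31.3 CPM in 3 untreated and 104 ± 16.7 CPM in 4 irradiated libraries (log2 fold change 1.25, SE 0.43, edgeR adjusted p = 0.317), and Cd28 was at 82.0 ± 13.7 and 202 ± 142 CPM. Tnfrsf4 had no UMI in the 3 untreated libraries, so no fold is given. It was at 16.5 ± 10.2 CPM in the irradiated ones, from 1, 3, 2 and 1 UMIs, in a class whose Tnfrsf4 level was at background above.

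Whether the response to radiation differed between the tumors was tested as the difference of the 2 log2 fold changes. It called 0 of 7 members in T and NK cells and 0 of 11452 genes (0%), with 620 genes at an unadjusted p below 0.05 and 2 called by DESeq2. The same test called 0 of 10567 genes (0%) in NK-like cells, with 676 at an unadjusted p below 0.05, and 0 of 6074 genes (0%) in regulatory T-like cells with at least 5 barcodes, with 334 at an unadjusted p below 0.05, and DESeq2 called 0 genes in either. In NK-like cells 3 of 6 members had an unadjusted p below 0.05, and none was called. For Cd28 the difference was 1.36 on the log2 scale toward MC38 (SE 0.36, edgeR adjusted p = 0.354). Untreated MC38 replicate 3, with 9 barcodes and Cd28 at 215 CPM, was left out of it. Irradiated MC38 replicate 1 was at 410 CPM from 14 barcodes. Cd28 was the 1 member with an unadjusted p below 0.05 in T and NK cells. Its difference was 0.79 on the log2 scale toward MC38 and was not called (SE 0.31, edgeR adjusted p = 0.912). The Icos effects differed by 0.29 (SE 0.25), which was not called.

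**Figure D4:**
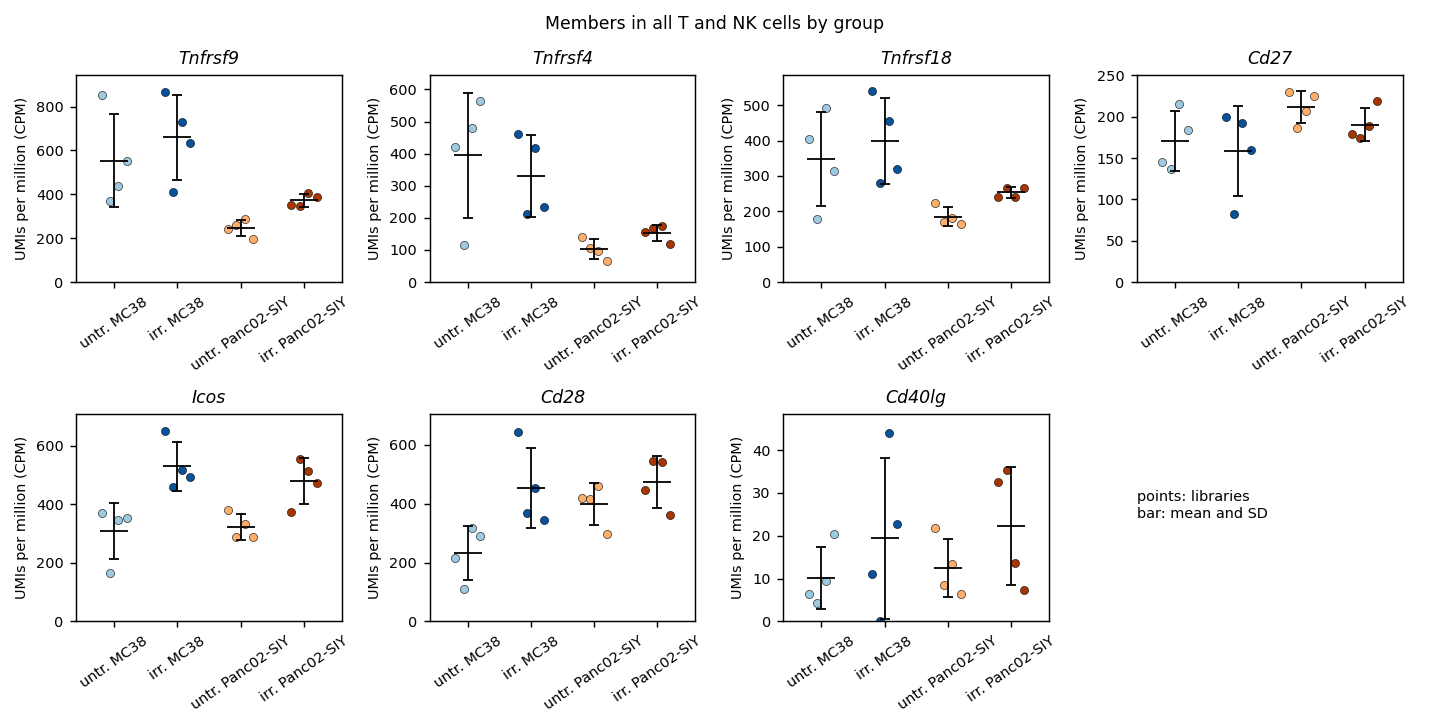
Level of each gene (CPM, vertical axis from 0) in all T and NK cells of each of the 4 groups, with points for libraries and bars for the mean and SD. Tnfrsf9, Tnfrsf4 and Tnfrsf18 are higher in MC38 than in Panc02-SIY on average, and the points of MC38 are more widely spread.

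Over all T and NK cells, 4-1BB, OX40 and GITR transcripts were called higher in MC38 than in Panc02-SIY, but the calls depended on how barcodes shared between MC38 libraries were counted. With only barcodes that had 80% of their UMIs in 1 library, 2 members remained called between untreated tumors, Tnfrsf9 (0.77, edgeR adjusted p = 0.0573) and Tnfrsf4 (1.88, edgeR adjusted p = 0.00976), and 0 between irradiated tumors, where Tnfrsf9 differed by 0.04 and Tnfrsf18 by 0.17. Between the untreated tumors 4 of 7 members were called, where 18.1% of 11452 genes were. Tnfrsf4 was at 395 ± 195 CPM in untreated MC38 and 103 ± 30.2 CPM in untreated Panc02-SIY (SD, n = 4), which differed by 1.87 on the log2 scale (SE 0.36, edgeR adjusted p = 0.00494), and its MC38 replicate 2, at 115 CPM, lay within the Panc02-SIY range. Tnfrsf9 was at 553 ± 213 and 247 ± 38.6 CPM without overlap (1.08, SE 0.21, edgeR adjusted p = 0.00133).

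Tnfrsf18 was at 405, 179, 493 and 315 CPM in untreated MC38 and at 223, 170, 180 and 164 CPM in untreated Panc02-SIY libraries. MC38 replicate 2 again lay within the Panc02-SIY range (0.81, SE 0.21, edgeR adjusted p = 0.0113). Cd28 went the other way, at 233 ± 92.6 and 399 ± 70.0 CPM with overlap (-0.88, SE 0.23, edgeR adjusted p = 0.0138). Icos was alike on average, 309 ± 95.3 and 322 ± 43.8 CPM (-0.15, SE 0.18).

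Between the irradiated tumors 3 of 7 members were called, where 16.9% of 11452 genes were. Tnfrsf9 was at 660 ± 193 CPM against 372 ± 28.2 CPM (0.84, SE 0.21, edgeR adjusted p = 0.0107), Tnfrsf4 at 331 ± 127 and 154 ± 25.2 CPM (1.11, SE 0.37, edgeR adjusted p = 0.0708), and Tnfrsf18 at 399 ± 121 and 253 ± 15.3 CPM (0.65, SE 0.21, edgeR adjusted p = 0.0412). None of the 3 overlapped between the tumors, and the share of all genes without overlap is not given. Cd28, at 453 ± 136 and 474 ± 88.4 CPM, overlapped.

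The class mix differed strongly between the tumors. Regulatory T-like cells were 20.1% and 17.6% of T and NK barcodes in untreated and irradiated MC38 and 3.59% and 4.74% in Panc02-SIY, whereas CD8 T-like cells were 9.20% and 9.44% against 58.0% and 42.4%. Another fit, an alternative chosen after seeing the data, left out regulatory T-like barcodes. Between untreated tumors it called Tnfrsf9 (1.02, SE 0.20, edgeR adjusted p = 0.00162), Tnfrsf4 (2.16, SE 0.34, edgeR adjusted p = 0.000959) and Tnfrsf18 (0.77, SE 0.20, edgeR adjusted p = 0.0143) higher in MC38. Cd27 and Icos were then lower in MC38 (-0.62 and -0.66, edgeR adjusted p = 0.0256 and 0.0300). For the irradiated tumors Tnfrsf9 remained called (0.60, edgeR adjusted p = 0.0551), while Tnfrsf4 (0.45, edgeR adjusted p = 0.518) and Tnfrsf18 (0.49, edgeR adjusted p = 0.130) did not. All other classes were kept in this fit, so the class mix stayed unequal, and its part in these values was not tested. Much of the Tnfrsf4 count of untreated MC38 came from few barcodes. In replicate 1, 91 of 197 T and NK UMIs came from cycling cells, where 16.7% of 6 barcodes held Tnfrsf4. In replicate 4, 120 of 193 came from the mixed class, where 44.4% of 9 barcodes held it.

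Within regulatory T-like cells of libraries with at least 5 barcodes, 0 of 6 members were called between untreated tumors, where 2.68% of 6074 genes were, and 0 of 6 between irradiated tumors, where 1.76% were. Tnfrsf4 differed there by -0.20 (SE 0.29) and -0.26 (SE 0.29), within the error. In the mixed class with at least 5 barcodes, 0 members were called between irradiated tumors, where 5.11% of 9617 genes were. In these fits edgeR left 0 members at an unadjusted p below 0.05, and DESeq2 called 0. The 8 macrophage markers, none of them at 0, summed to 860 ± 275 and 919 ± 229 CPM in T and NK cells of untreated and irradiated MC38 and to 212 ± 91.1 and 219 ± 58.6 CPM in Panc02-SIY. Macrophages held 13.8 CPM or less of every member. Macrophage markers also stood at 274 ± 132 and 428 ± 331 CPM in untreated and irradiated CD8 T-like cells of Panc02-SIY. The part of macrophage RNA in the member values was not tested.

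In NK-like cells, Cd28 was lower in untreated MC38 than in untreated Panc02-SIY, 1 of 6 members called where 7.51% of 10567 genes were. It was at 73.3, 75.0 and 97.9 CPM in untreated MC38 replicates 1, 2 and 4 and at 174, 206, 189 and 182 CPM in untreated Panc02-SIY. These libraries did not overlap (-1.21, SE 0.28, edgeR adjusted p = 0.00303). Untreated MC38 replicate 3, left out with 9 barcodes, was at 215 CPM from 10 UMIs, above every untreated Panc02-SIY library. With libraries of at least 5 barcodes, which include it, edgeR called Cd28 and Icos. At the limit of 10 barcodes, DESeq2 called Tnfrsf9 beside Cd28. Between irradiated tumors 0 of 6 were called by edgeR or DESeq2, where 12.6% of genes were called by edgeR, with 1 at an unadjusted p below 0.05, and Cd28 overlapped at 202 ± 142 and 160 ± 19.7 CPM. MC38 NK-like cells were mostly of 1 cluster (86.8% of untreated barcodes in cluster 14), which held 3.77% of untreated Panc02-SIY NK-like cells. Their macrophage marker sum was 1040 ± 428 CPM, against 87.7 ± 47.6 CPM, and the part of either in the result was not tested.

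Since a level over all sorted cells would also depend on how many T and NK cells there were, and fewer cells and less RNA per cell cannot be told apart in such a sum, their share was compared. T and NK cells were 13.6 ± 2.60% and 18.9 ± 2.64% of CD45+ barcodes in untreated and irradiated MC38 and 52.2 ± 6.48% and 50.8 ± 6.44% in Panc02-SIY (SD, n = 4). The exact two-sided permutation p was 0.0286, the smallest that 4 against 4 libraries allow, for radiation in MC38 and for both comparisons between tumors (adjusted p = 0.131), and 0.771 for radiation in Panc02-SIY.

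The pathway genes around the receptors were taken from lists chosen with earlier results of these data known. Of 20 genes of TNF receptor signaling (TRAF adaptors, NF-kB subunits and their inhibitors and targets), 0 were called after radiation of MC38, where 0.926% of all genes were, and 1 higher and 1 lower after radiation of Panc02-SIY, near the background of 7.21%. The higher one was Bcl2l1, which encodes the survival protein BCL-XL (log2 fold change 0.59, SE 0.14), and the lower one was Bcl2a1b (-0.58, SE 0.19), whose near-identical paralogs make its counts uncertain. The median over the list was 0.28 in MC38 and 0.23 in Panc02-SIY, beside medians over all genes within 0.01 of 0.

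Between untreated tumors 7 of these 20 genes were higher and 2 lower in MC38, where 18.1% of all genes were called (834 higher and 1236 lower), and between irradiated tumors 8 were higher and 2 lower, where 16.9% were called (903 higher and 1037 lower). Traf1, an adaptor bound by 4-1BB and itself an NF-kB target, was higher by 0.94 (SE 0.18) and 1.08 (SE 0.18). Nfkbia, which encodes the NF-kB inhibitor IkBa, was higher by 1.03 (SE 0.29) and 1.00 (SE 0.29). Nfkb2, a subunit of the alternative NF-kB pathway, was higher by 0.96 (SE 0.23) between the untreated tumors, and Relb, its partner, by 0.94 (SE 0.19) between the irradiated ones. The list medians were 0.03 and 0.32, beside -0.07 and -0.05 over all genes. Within NK-like cells the list gave 3 higher and 2 lower between untreated tumors, where 7.51% of genes were called. Between irradiated tumors it gave 2 higher and 3 lower there, where 12.6% were called. Macrophage markers summed to 860 ± 275 CPM in untreated MC38 T and NK cells and 212 ± 91.1 CPM in untreated Panc02-SIY. Their part and that of the class mix in these list values were not tested.

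Of 20 genes of CD28 and ICOS signaling, 0 were called after radiation of MC38 and 1 after radiation of Panc02-SIY, below the 7.21% of all genes called there. That gene was Pik3r1, for the regulatory subunit of phosphoinositide 3-kinase (0.48, SE 0.16). Between untreated tumors 1 was higher and 6 were lower in MC38, and between irradiated tumors 0 were higher and 7 lower, beside the 18.1% and 16.9% of all genes called, among which lower calls were also the more numerous. The higher one was Il2ra, a marker of regulatory T cells (1.08, SE 0.39). Pik3cd, the catalytic subunit p110 delta, differed by -1.15 and -1.25 and Nfatc1, a calcium-regulated transcription factor, by -1.34 and -1.06 between untreated and irradiated tumors. Themis, a T cell signaling gene, differed by -1.41 (SE 0.28) between the untreated tumors, and Foxo1, a transcription factor gene, by -1.13 (SE 0.24) between the irradiated ones. The list medians were 0.10 and 0.08 for radiation in MC38 and Panc02-SIY and -0.20 and -0.33 between untreated and irradiated tumors.

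Of 10 other costimulatory receptors, 0 were called after radiation in either tumor and 0 between irradiated tumors. Between untreated tumors 2 of the 10 were called, near the background of 18.1%. Tnfrsf8, which encodes CD30, was higher in MC38 (8.52 ± 7.21 against 1.38 ± 0.450 CPM) and Slamf1 was lower (18.4 ± 15.1 against 38.7 ± 5.37 CPM). The list medians were 0.08 and 0.04 for radiation in MC38 and Panc02-SIY and 0.07 and 0.36 between untreated and irradiated tumors. The difference of the radiation effects called 0 genes of any list.

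Of the 8 ligand and partner genes, 7 were tested in T and NK cells. Tnfsf4, which encodes OX40 ligand, rose with radiation in both tumors. It was at 2.14, 0, 0 and 5.83 CPM in untreated MC38 (3 UMIs in all) and 50.1, 20.5, 30.2 and 37.2 CPM in irradiated MC38 (46 UMIs), and all irradiated libraries were above the untreated ones (edgeR adjusted p = 0.0128). In Panc02-SIY it was at 6.15 ± 3.37 and 19.6 ± 5.49 CPM (log2 fold change 1.57, SE 0.27, edgeR adjusted p = 0.00132). Cd80, a ligand of CD28, was at 6.77 ± 1.36 and 20.9 ± 3.57 CPM in the same libraries (1.53, SE 0.21, edgeR adjusted p = 6.22e-05).

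Between untreated tumors 3 ligand genes were called higher in MC38 T and NK cells, namely Tnfsf9, Cd40 and Cd70, from 54, 6 and 7 UMIs over 4 libraries, where 18.1% of all genes were called. Macrophage markers summed to 860 ± 275 CPM in the same MC38 cells and 212 ± 91.1 CPM in Panc02-SIY, and their part in these ligand values was not tested. Tnfsf9, which encodes 4-1BB ligand, was at 45.8 ± 53.3 against 6.06 ± 0.758 CPM. The list medians were -0.74 and 0.45 for radiation in MC38 and Panc02-SIY and 1.04 and 0.83 between untreated and irradiated tumors, where few UMIs lie behind most of the genes. Among all classes, mature DC-like cells had the highest mean of Tnfsf9 (132 ± 47.5 CPM), Cd86 (290 ± 88.2), Cd40 (236 ± 70.9), Icosl (81.3 ± 55.6), Tnfsf4 (66.8 ± 42.8) and Cd70 (62.9 ± 52.7, 6 libraries). Cd80 was at 312 ± 70.9 CPM in neutrophil-like cells (8 libraries) and 290 ± 115 in mature DC-like cells, and Tnfsf18, the GITR ligand gene, was at most 1.90 CPM in any class.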

How the data were processed

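The authors made the deposited UMI counts per barcode and gene with Cell Ranger 3.1.0 (bcl2fastq 2.20.0, mm10, per the labels) from 10x 3' version 3.0 libraries, and the counts were used unscaled, from the matrices of single libraries and not the aggregated one. The 7 genes and all lists were chosen with earlier results of these data known. Each barcode was kept in its richest library within a tumor. Barcodes were clustered without the 7 genes (scanpy 1.11.5, leidenalg 0.10.2, 2000 variable genes, 30 components, 20 neighbors, resolution 1), T and NK clusters were clustered again, and clusters were named from at least 3 raised markers.

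Counts were summed per library and class (at least 10 barcodes) and tested with edgeR 4.0.16 (R 4.3.3), with filterByExpr (minimum count 3, total 15), TMM, 1 coefficient per group, robust quasi-likelihood tests, Benjamini-Hochberg adjustment over all genes. In a test on simulated data the share of false calls was above the adjusted p limit, which bears most on calls close to it. Alternatives included DESeq2 1.42.0, its RLE scaling, a cell filter (at least 500 genes, at most 10% mitochondrial UMIs), removal of the 5% of barcodes with the highest Scrublet scores, and thinned libraries (a mean of 4183.9 UMIs per T and NK barcode). Class shares were compared by exact permutation tests. Named genes were the members, the 3 genes most like each, and up to 3 called genes per list and comparison. No cell filter was set and doublets were kept, with filtered alternatives. The GEO design text and the methods differ on 3 or 4 animals per group.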

Additional observations from a re-analysis of the deposited data

Results flagged for a closer look

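Of 110 groups of 4 libraries checked for a library far from the others, 4 held one, where chance flags about 1 in 20 groups. Icos in T and NK cells was at 166 CPM in untreated MC38 replicate 2, against 347 to 368 CPM in the other untreated MC38 libraries, from 39 UMIs. Cd28 in regulatory T-like cells was at 914 CPM in untreated Panc02-SIY replicate 3, against 699 to 735 CPM. Cd27 in the mixed Cd4 and Cd8a class was at 110 CPM in irradiated Panc02-SIY replicate 2, against 152 to 157 CPM. Cd40lg in NK-like cells was at 0.911 CPM, which is 1 UMI, in irradiated Panc02-SIY replicate 1, and had no UMI in the other 3.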

How the results depend on the processing

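The counts of members called in T and NK cells moved with the settings. For radiation in MC38, 2 were called, and 0 were called at an adjusted p below 0.05, with every barcode kept in every library, with barcodes of 80% of UMIs in 1 library only, with only the groups compared, with a cell filter and at resolution 2. It was 1 under RLE scaling, with no filter, with doublets removed and without regulatory T-like barcodes, and 0 to 2 with 1 library left out. For radiation in Panc02-SIY, 0 were called, and 2 were called with every barcode kept, with only the groups compared and with thinned libraries, and 1 with DESeq2, RLE scaling, a minimum count of 10, no filter, the replicate block and doublets removed, and 0 to 2 with 1 library left out. Between untreated tumors 4 were called, 2 under the 80% limit, and between irradiated tumors 3 were called, 0 under the 80% limit, 1 without regulatory T-like barcodes and 1 to 3 with 1 library left out. The cause was not tested. The T and NK share differed between untreated tumors by -41.6 percentage points with every barcode kept and -51.7 with the cell filter, and between irradiated tumors by -39.8 and -41.8, all with adjusted p below 0.1.

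Of single members, 23 values changed sign, all of them uncalled. Under the 80% limit, log2 fold changes were -0.26 for Tnfrsf9 and -0.23 for Tnfrsf18 (radiation in MC38), 0.16 for Cd40lg (untreated tumors), 0.14 for Cd28 (irradiated tumors) and -0.10 for Cd27 (difference of effects). Others were 0.11 for Cd27 with the cell filter (radiation in MC38), 0.15 for Cd40lg with thinned libraries (untreated tumors), and, between irradiated tumors, -0.45 for Icos without regulatory T-like barcodes and 0.0071 and 0.0028 for Cd28 with DESeq2 and RLE scaling. With 1 library left out the ranges were, for radiation in MC38, -0.041 to 0.37 for Tnfrsf18 and -0.16 to 0.12 for Cd27, between untreated tumors -0.26 to 0.025 for Icos and -0.96 to 0.094 for Cd40lg, between irradiated tumors -0.27 to 0.039 for Cd28 and -0.41 to 0.60 for Cd40lg, and for the difference of effects -0.46 to 0.036 for Tnfrsf9, -0.43 to 0.0094 for Tnfrsf18 and -0.11 to 1.12 for Cd40lg.

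Calls lost without 1 library were Icos in MC38 (without untreated MC38 1 or 2, irradiated MC38 1, 3 or 4, or untreated Panc02-SIY 2, adjusted p up to 0.205), Cd28 in MC38 (without any of 11 libraries, up to 0.351), Tnfrsf4 between irradiated tumors (without irradiated MC38 1 or 3 or irradiated Panc02-SIY 1, 3 or 4, 0.103 to 0.209) and Tnfrsf18 there (without irradiated MC38 1 or 3, 0.150 and 0.167). In Panc02-SIY classes these were Tnfrsf9 in CD8 T-like cells (without untreated 4, 0.123), Tnfrsf18 there (without untreated 2, 3 or 4 or irradiated 2 or 4, 0.125 to 0.241), Cd28 in cycling cells (without untreated 2 or 4, 0.113 and 0.264), and in the unnamed cluster Tnfrsf18 (without irradiated 4, 0.104) and Cd28 (without untreated 1 or 4 or irradiated 1, 2 or 3, 0.101 to 0.147). Under the 80% limit Cd28 in NK-like cells was no longer called (-0.77, adjusted p = 0.233).

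Genes called over all T and NK cells ranged from 14 to 183 for radiation in MC38 (106), where left-out libraries gave 26 to 167, and from 207 to 1269 with 1 library left out for radiation in Panc02-SIY (826), where the replicate block gave 1340. Between untreated tumors thinned libraries gave 1355 in place of 2070, and between irradiated tumors every barcode kept gave 3027 and leaving out irradiated MC38 4 gave 1262 in place of 1940. The replicate numbers are shared between groups, but same-numbered samples correlated by 0.01 to 0.08 in MC38 and 0.03 to 0.61 in Panc02-SIY, so the numbers were not shown to pair the samples. In Panc02-SIY 3 of 4 same-numbered pairs were above 0.1, with a mean of 0.29 against -0.09 for other pairs, but not every library correlated best with its own number. With the replicate block, members called were 2, 1, 5 and 2 in the order above.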

Other observations

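Mature DC-like cells, which had the highest mean of 6 ligand genes, also held the transcripts of 3 TNF receptors. Over 6 libraries Tnfrsf4 was at 147 ± 73.8 CPM, Tnfrsf18 at 145 ± 49.6 CPM and Tnfrsf9 at 124 ± 71.3 CPM (SD), whereas Cd27 was at 11.7 ± 8.44 CPM, Cd28 at 14.4 ± 26.7 CPM and Icos at 27.7 ± 19.2 CPM, and Cd40lg had no UMI. Macrophages held 6.99 CPM of Tnfrsf4, 11.2 of Tnfrsf18 and 13.1 of Tnfrsf9, pooled over all barcodes of both tumors. Free RNA and doublets of a dendritic cell and a T cell were not tested as sources.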
